A study of Mus musculus with 12 samples.

Results

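The genes described here encode the protein components of the mitochondrial ribosome. They were taken as every row of the count table whose transcript belongs, in the GENCODE annotation of mouse genome build GRCm38, to a protein-coding gene with a symbol starting Mrpl or Mrps followed by a number. The rule found 77 genes among the 22467 rows, 48 named for the large subunit (Mrpl) and 29 named for the small subunit (Mrps). All 77 passed the filter on low counts (above 0.75 CPM, counts per 1000000 of the library total, in 3 or more ribosome profiling libraries) that left 12576 transcripts for testing. Mrpl53 was not analysed here.

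Ribosome profiling sequences the mRNA fragments that ribosomes protect from nuclease (ribosome-protected fragments, RPF), and was run with RNA-seq on single whole mouse embryos at E8.5. There were 3 wild-type embryos (Rpl10a +/+, WT) and 3 embryos homozygous for a loss-of-function allele (Rpl10a LOF/LOF, LOF), and every embryo gave 1 RPF and 1 RNA library. The LOF allele was made by CRISPR in C57BL/6 mice and deletes part of an intron. The intronic sequence that is left stays in the mRNA and adds residues after the first methionine of RPL10A, a protein of the large subunit of the cytosolic ribosome. It is a hypomorph rather than a null, the extended protein still enters ribosomes, and all cells of the embryo carry it, so an embryo's libraries average over its tissues. In bulk embryos, a change in the number of cells of a type and a change in RNA per cell cannot be told apart.

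Mammalian mitochondria have their own ribosomes, with RNAs encoded in mitochondrial DNA and proteins encoded in the nucleus. The proteins are made on cytosolic ribosomes, imported, and assembled into a large subunit that joins amino acids and a small subunit that reads the mRNA. The finished ribosome translates the few mRNAs of mitochondrial DNA, all for subunits of the respiratory chain and ATP synthase. Some of these proteins descend from bacterial ribosomal proteins and others are found only in mitochondria. MRPL1 belongs to the same protein family, uL1, as RPL10A, and has that place in the mitochondrial ribosome. The symbols are not a perfect guide, because the products of Mrps30 and Mrps18a sit in the large subunit and that of Mrps36 belongs to the 2-oxoglutarate dehydrogenase complex.

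One feature that the rule did not use was the sequence at the start codon. In 19 of the 77 transcripts, the coding sequence began with ATGGCGGC, which encodes methionine and alanine and is the core of the TISU element known from short leaders. This was 24.7% of the genes, against 3.57% of the 12531 coding transcripts tested that have an annotated start codon. The share was 22.9% in the large subunit (11 of 48) and 27.6% in the small subunit (8 of 29). Among the members with a 5'UTR under 60 bases it was 48.1% (13 of 27), against 11.7% of the 1701 tested transcripts with such a 5'UTR. Members with the motif had a median 5'UTR of 40 bases, and the others of 111.5 bases. The contexts below come from GENCODE M21, with the last 6 bases of the 5'UTR in lower case and the first 12 coding bases in capitals; the first 6 carry the motif and the last, of the stalk protein gene Mrpl10, departs from it.
Mrpl1 (chr5:96209493-96266727, plus strand): gtcaacATGGCGGCGGCC
Mrpl19 (chr6:81957851-81965958, minus strand): gtagacATGGCGGCCTCC
Mrpl35 (chr6:71812997-71823810, minus strand): tgcaagATGGCGGCTTCC
Mrps27 (chr13:99344786-99415562, plus strand): tccaagATGGCGGCTCCC
Mrps18a (chr17:46110986-46128910, plus strand): tccaagATGGCGGCCCTC
Mrps30 (chr13:118378381-118387252, minus strand): gcgaaaATGGCGGCGGCC
Mrpl10 (chr11:97041560-97049213, plus strand): gtagcgATGGCTGCGGCG

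Promoters were read from RefSeq windows on GRCm38, from 250 bases before to 50 bases after each transcription start, which held 74 windows for 68 of the members and 18473 windows for 14920 coding genes of the table. The letters GCATGCGC, a core of the site of NRF1, a factor known for nuclear genes of mitochondria, were found on either strand in 10.8% of the members' windows and 3.95% of all. By subunit, these letters were in 14.9% of Mrpl windows (7 of 47) and 3.70% of Mrps windows (1 of 27). CCGGAAGT, a core of the site of ETS factors such as GABPA, was in 16.2% against 5.74%. AAGATGGCG, a core of the site of YY1, was in 10.8% against 2.09%. AAGATGGCG shares the letters ATGGCG with the start-codon motif, and in 7 members it lies across the start codon. TATAAAA (5.41% against 4.09%) and CCAAT (39.2% against 37.4%) were close to their shares in all windows. Matches to the NRF1 core are shown for 3 genes, with the matched letters in capitals and the distance upstream of the RefSeq start.
Mrpl9, 26 bases upstream, chr3:94443300-94443327, plus strand: gcgcagctgcGCATGCGCggggtccttc
Mrpl10, 134 bases upstream, chr11:97041438-97041465, plus strand: ccagctccacGCATGCGCatagcggccc
Mrps18b, 223 bases upstream, chr17:35916646-35916673, minus strand: acggcccgacGCATGCGCactgggagca

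Library totals ran from 7041357 to 10863499 counts for RPF and from 9132521 to 26561843 counts for RNA. Rpl10a itself had a lower RPF level in LOF, with 1562, 1611 and 1679 CPM in WT and 1125, 1040 and 940 CPM in LOF (log2 fold change -0.64, SE 0.07, adjusted p = 0.00689). The RPF call was lost without WT embryo 2, with the value at -0.65, in a fit that called 0.0321% of all transcripts. Its RNA was also lower (-0.23, SE 0.06, adjusted p = 0.0678). That call was lost with the Y-linked covariate (-0.28) and without WT embryo 1 or 3 or LOF embryo 1 or 2 (-0.20 to -0.21). In RPF/RNA, Rpl10a was at -0.42 (SE 0.09, adjusted p = 0.974 by edgeR) without overlap between genotypes, and DESeq2 called it lower. The summed level of visceral endoderm genes in RPF was 4939 to 6412 CPM in WT and 1709 to 3659 CPM in LOF, that of primitive erythroid genes 834 to 2805 and 3446 to 5788 CPM. Of the 6 visceral endoderm markers, 5 fell in RPF and 6 in RNA, and of the 6 erythroid markers 3 rose in RPF and 1 in RNA. None of the 9 E8.5 embryo markers was called in RPF. Kdr made up 196 to 256 CPM of their sum of 354 to 402 CPM in the RPF libraries, and Pax6 (-0.37, SE 0.12) and Tbx6 (-0.41, SE 0.11) had an unadjusted p under 0.05 and no overlap between genotypes. Y-linked genes were at 154 to 183 CPM in RPF in all WT embryos and LOF embryo 2, and at 9.09 and 0.384 CPM in LOF embryos 1 and 3, so the sexes were not balanced between genotypes. The part of the endoderm and erythroid cells in the differences given below was not tested.

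In WT embryos the mitochondrial ribosomal protein genes had medians of footprints per length above that of all transcripts. The mean WT level was 34.1 to 219.9 RPF CPM per kb of counted coding sequence over the 48 Mrpl genes, with a median of 90.6. It was 36.9 to 249 over the 29 Mrps genes, with a median of 70.8. The median over all transcripts tested was 13.9 RPF CPM per kb. The quartiles of the Mrpl genes stood 1.64-fold apart and those of the Mrps genes 1.90-fold, against 11.1-fold for all transcripts. Some other mitochondrial lists also had close quartiles. They were 12.4 and 27.5 RPF CPM per kb for assembly factors of the mitochondrial ribosome and 11.6 and 24.6 for mitochondrial aminoacyl-tRNA synthetases. Others stood further apart, at 11.9 and 37.0 for mitochondrial translation factors. For genes of transcription of mitochondrial DNA and stability of its mRNAs they were 10.4 and 114. The highest per length were Mrpl17 at 219.9 and Mrpl20 at 204 RPF CPM per kb among Mrpl genes. Among Mrps genes they were Mrps21 at 249 and Mrps18c at 229 RPF CPM per kb. All of these encode counterparts of bacterial ribosomal proteins.

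The stalk of the large subunit, which calls translation factors to the ribosome, showed a contrast between its members. MRPL12 is the counterpart of bacterial L7/L12, which is present in several copies, and MRPL10 is the protein on which those copies are held. Mrpl12 was at 156, 153 and 165 RPF CPM per kb in the WT embryos, with 8 Mrpl genes above it. Mrpl10 was at 41.5, 48.9 and 51.6 RPF CPM per kb, with 2 Mrpl genes below it. The ratio of Mrpl12 to Mrpl10 was 3.36 ± 0.34 (SD, n = 3) in WT and 3.10 ± 0.39 (SD, n = 3) in LOF, a difference smaller than either SD. The ratio was chosen after the levels were seen and is given as a description. Mrpl11, the protein at the base of the stalk, was at 155 RPF CPM per kb. In WT RNA, Mrpl12 was at 90.9, Mrpl10 at 36.1 and Mrpl11 at 24.9 CPM per kb of transcript. Mrpl12 thus also lay above Mrpl10 in RNA, and the part of RNA in the RPF contrast was not tested.

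The RPF/RNA ratio in WT embryos had medians above that of the median transcript for both subunits. It is given on the log2 scale as RPF CPM per kb of counted coding sequence over RNA CPM per kb of transcript, centred on the median of 12567 coding transcripts in each embryo, as a mean over 3 embryos with no test. The median was 0.82 for Mrpl genes and 0.79 for Mrps genes. In all, 37 of 48 Mrpl genes and 25 of 29 Mrps genes lay above the median transcript. Centred on the 5723 transcripts with coding sequences in the members' range of length, 30 and 21 did, and the medians were 0.42 and 0.40. Among the Mrpl genes 27, and among the Mrps genes 16, were above the upper quartile of all transcripts, and none was below the lower quartile. For comparison, the medians were 0.50 and 0.39 for cytosolic large and small subunit protein genes and 1.02 for nuclear-encoded subunits of the respiratory chain and ATP synthase.

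**Figure D1:**
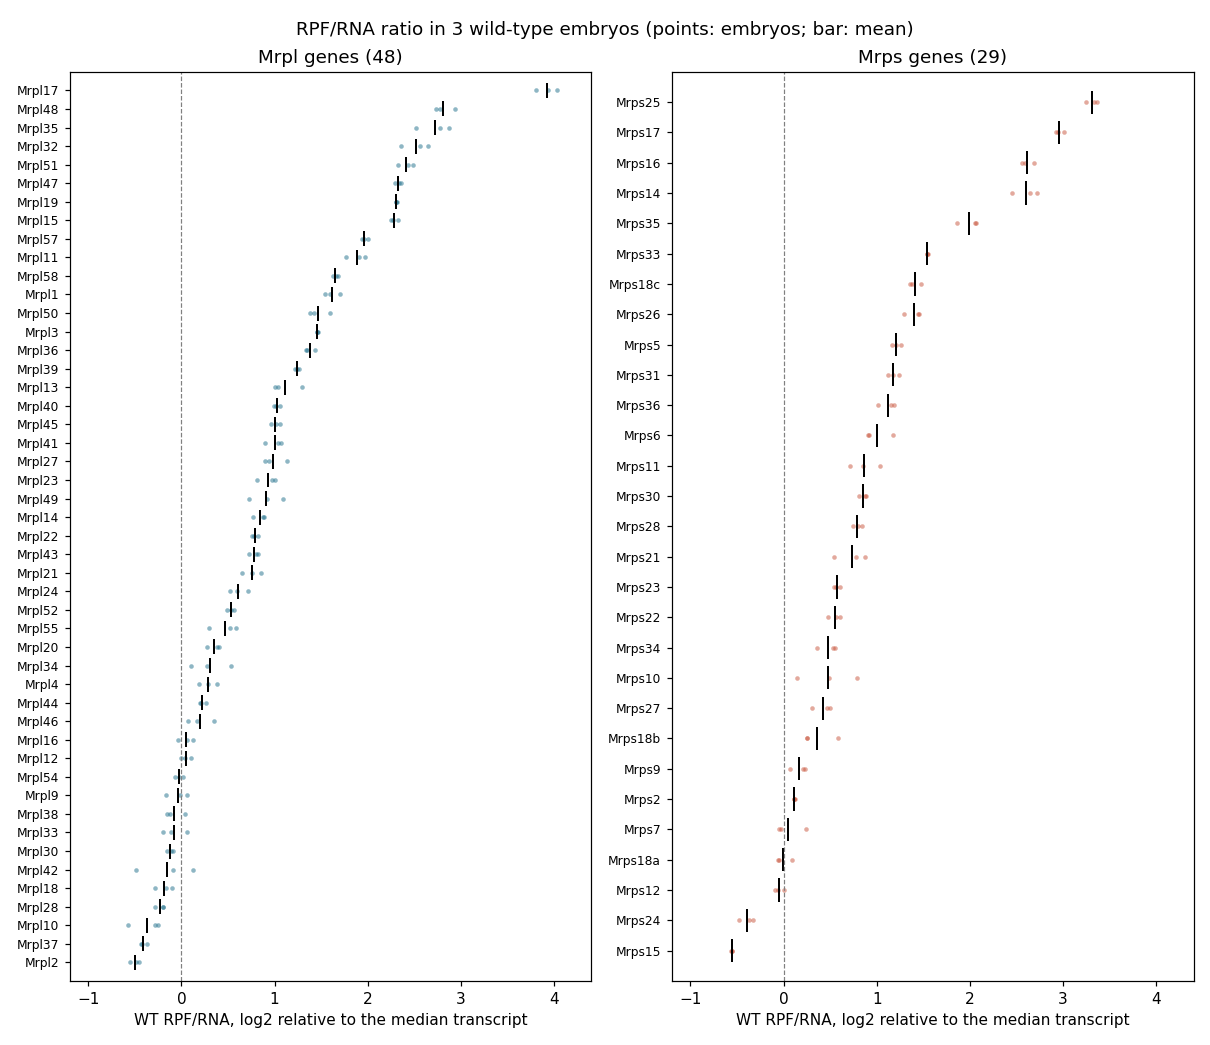
RPF/RNA ratio of each mitochondrial ribosomal protein gene in 3 WT embryos, on the log2 scale relative to the median transcript (dashed line at 0). Points are embryos and bars their means. Mrpl genes (left, blue) ran from -0.50 for Mrpl2 to 3.92 for Mrpl17, and Mrps genes (right, red) from -0.56 for Mrps15 to 3.31 for Mrps25.

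The genes differed from each other far more than embryos did. The SD between genes was 1.02 for Mrpl and 0.98 for Mrps genes (0.53 and 0.58 without division by length), while the median SD between the WT embryos was 0.085 and 0.082. The highest Mrpl ratios were those of Mrpl17 (3.94, 4.03 and 3.81 in the 3 embryos), Mrpl48 (mean 2.81) and Mrpl35 (2.72). The highest Mrps ratios were those of Mrps25 (3.36, 3.33 and 3.24), Mrps17 (2.96) and Mrps16 (2.61). The lowest Mrpl ratios were those of Mrpl2 (-0.46, -0.55 and -0.49), Mrpl37 (-0.41) and Mrpl10 (-0.37). Among Mrps genes Mrps15 (-0.57, -0.55 and -0.55), Mrps24 (-0.39) and Mrps12 (-0.05) were lowest. Across the 77 genes the mean ratios of WT and LOF embryos gave a Pearson correlation of 0.993, with the lengths shared by both.

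This order moved with the annotated 3'UTR. Across the 77 genes the ratio and 3'UTR length gave a Pearson correlation of 0.824 and a Spearman correlation of 0.614, against a Spearman correlation of -0.0146 over all transcripts. The ratio and 3'UTR length share the transcript length by which RNA was divided. The 25 members with a 3'UTR over 1000 bases had a median ratio of 1.99, and the other 52 of 0.45, or 1.59 and 0.0482 when centred on transcripts in the members' range of coding length. Mrpl17 has the longest 3'UTR, of 6651 bases, and Mrps25 one of 5497 bases. Without division by length the medians of these 25 and 52 genes were 0.55 and 0.65. The Spearman correlation was then -0.212 over the 77 genes, against -0.457 over all transcripts. On that scale the highest genes were Mrps31 at 1.79 and Mrps18c at 1.70 and the lowest were Mrpl33 at -0.82 and Mrpl10 at -0.52, named after their values were seen. Mrpl17 was then at 1.05 and Mrps25 at 0.65. The order of single genes in WT RPF/RNA therefore depended on whether the annotated 3'UTR was counted as RNA length, while the subunit medians stayed above 0, at 0.61 and 0.65. How far the annotated 3'UTRs are those used in the embryo was not tested.

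**Figure D2:**
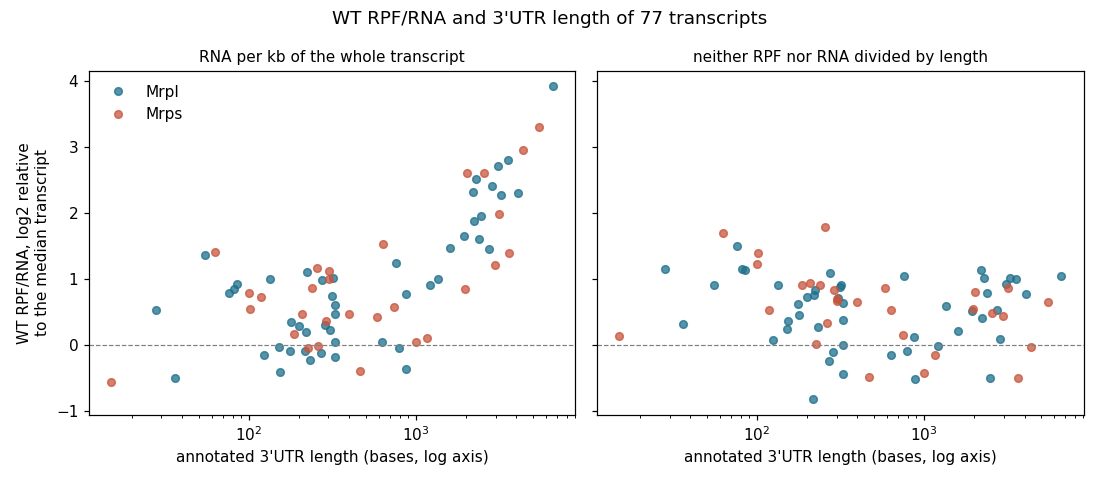
WT RPF/RNA (log2, relative to the median transcript) of the 77 genes against annotated 3'UTR length on a log axis, blue for Mrpl and red for Mrps genes. With RNA taken per kb of the whole transcript (left) the genes with 3'UTRs over 1000 bases lie higher (median 1.99 against 0.45), and without division by length (right) they do not (0.55 against 0.65).

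In LOF embryos, none of the 77 genes passed the test in RPF (adjusted p under 0.1 by edgeR), where 2.19% of all transcripts did, and none passed it with DESeq2 or limma-voom. An unadjusted p under 0.05 was found for 9 members, 11.7%, against 13.7% of all transcripts. Of these, 8 were higher in LOF, 10.4% of the members, against 7.12% of all transcripts. The WT and LOF embryos did not overlap in 17 members (background 19.4%), of which 14 were higher in LOF (background 9.92%). The log2 fold change was above 0 in 61 of 77, 38 Mrpl and 23 Mrps genes, against 50.9% of all transcripts. The median was 0.06 for the Mrpl and 0.05 for the Mrps genes. The 95% interval of every member lay within a 1.5-fold change in either direction, which held for 67% of all transcripts. Intervals are narrower at higher counts, and the median level was 86.0 RPF CPM per kb over the members and 13.9 over all transcripts.

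Leaving out an embryo or adding surrogate variables changed these counts. limma-voom with 2 surrogate variables from sva called 8 members in RPF, 7 higher in LOF (Mrpl16, Mrpl35, Mrpl45, Mrpl47, Mrps18b, Mrps22 and Mrps26) and Mrpl41 lower, where it called 10.4% of all transcripts. Without LOF embryo 2, edgeR called 6 members, Mrpl19, Mrpl35, Mrpl47, Mrps18b and Mrps22 higher and Mrpl41 lower, where it called 11.6% of all transcripts. Without LOF embryo 1 none was called, 49 of 77 were above 0, and the medians were 0.0231 for Mrpl and 0.0281 for Mrps genes.

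**Figure D3:**
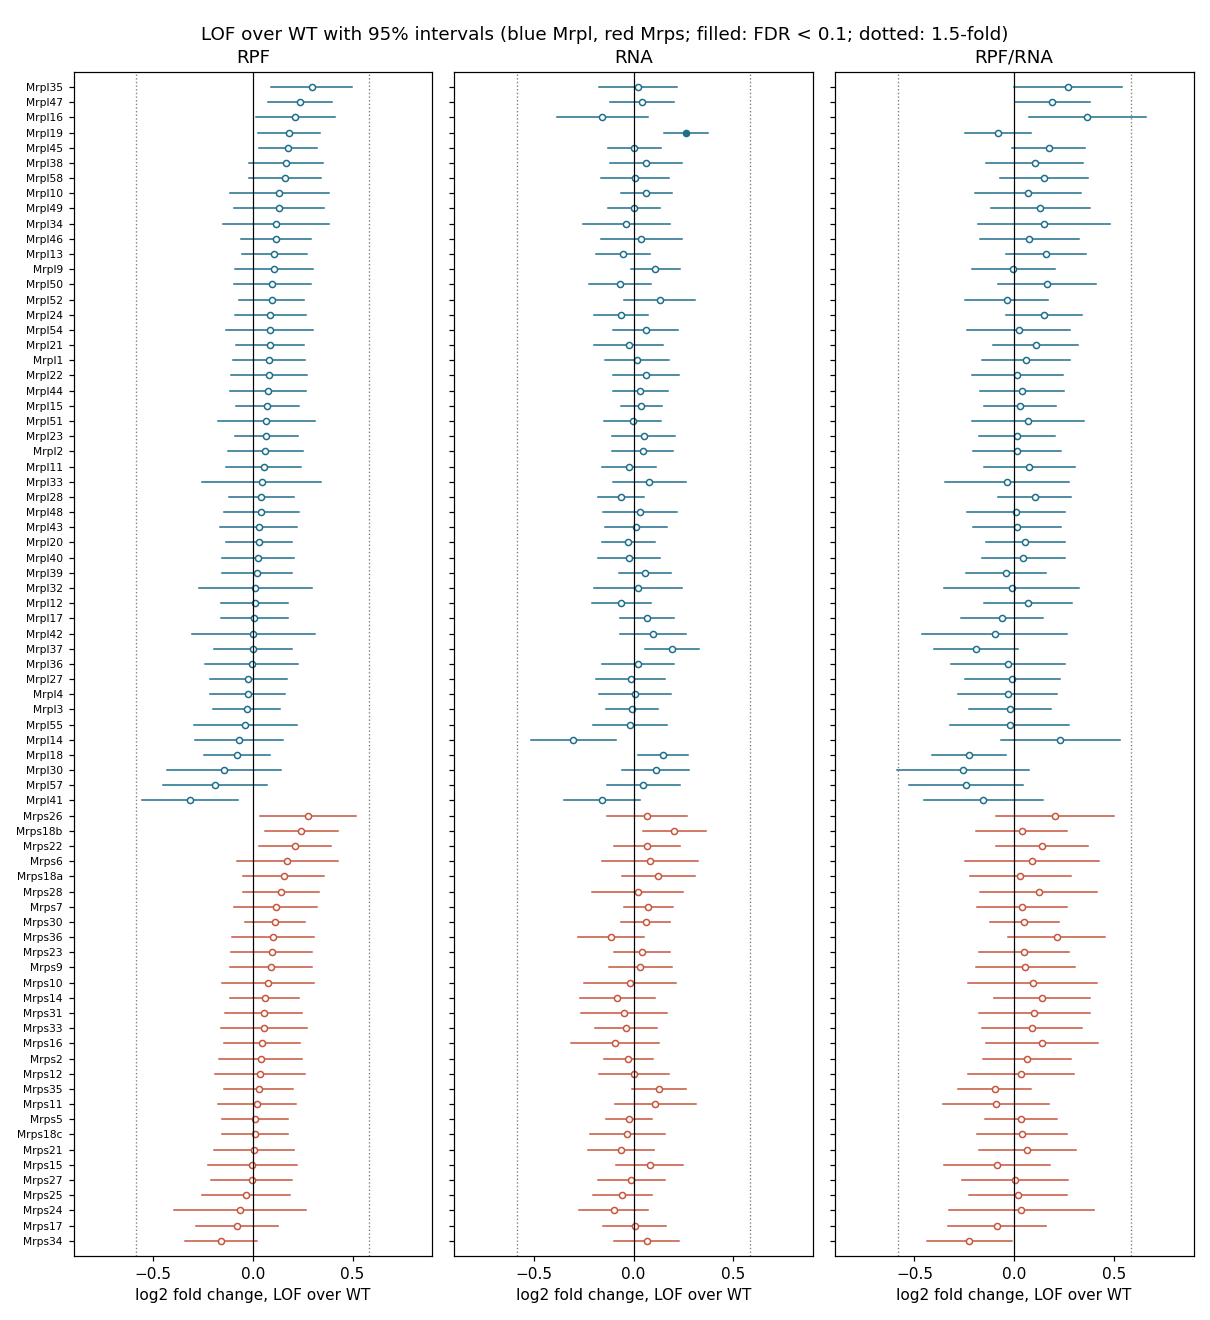
log2 fold change of LOF over WT with 95% intervals for the 77 genes in RPF, RNA and RPF/RNA, ordered by the RPF change within Mrpl (blue) and Mrps (red) genes. Dotted lines mark a 1.5-fold change, and the filled point, Mrpl19 in RNA at 0.26, is the only one with an adjusted p under 0.1.

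The largest positive RPF difference among the large subunit genes was at Mrpl35, a counterpart of bacterial L35. It had 58.6, 49.6 and 50.3 CPM in WT and 67.8, 59.7 and 67.3 CPM in LOF (log2 fold change 0.29, SE 0.09, adjusted p = 0.187). Every LOF embryo was above every WT embryo. Mrpl47 encodes the counterpart of L29 near the exit of the nascent chain. It had 59.1, 59.6 and 57.9 CPM in WT and 72.3, 66.8 and 69.0 CPM in LOF (0.24, SE 0.07, adjusted p = 0.179), again without overlap. The next were Mrpl16 at 0.21 (SE 0.09), Mrpl19 at 0.18 (SE 0.07) and Mrpl45, whose product lies near the inner membrane, at 0.18 (SE 0.07).

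Mrpl41, specific to mitochondria, was the one member with an unadjusted p under 0.05 and a lower RPF level in LOF. It had 35.7, 35.9 and 35.7 CPM in WT and 24.0, 31.3 and 30.4 CPM in LOF (-0.32, SE 0.11, adjusted p = 0.226). Its LOF embryos were all below its WT embryos. Mrpl57 (-0.19, SE 0.12) and Mrpl30 (-0.15, SE 0.13) followed, with overlap between the genotypes, and then Mrpl18 (-0.08, SE 0.08) without overlap.

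Among the small subunit genes, Mrps26, specific to mitochondria, had the largest positive difference in RPF, with none of the genes called. It had 20.9, 19.3 and 19.6 CPM in WT and 25.9, 25.2 and 21.7 CPM in LOF (0.28, SE 0.11, adjusted p = 0.292). Mrps18b had 73.1, 61.0 and 67.6 CPM in WT and 82.1, 77.8 and 79.0 CPM in LOF (0.24, SE 0.08, adjusted p = 0.224). Mrps22 had 88.6, 86.3 and 87.5 CPM in WT and 109, 90.0 and 105 CPM in LOF (0.21, SE 0.08, adjusted p = 0.283). The genotypes did not overlap in any of these, and the LOF embryo nearest to WT was embryo 3 for Mrps26 and embryo 2 for the others. Mrps6, the counterpart of S6, was at 0.17 (SE 0.11). The most negative were Mrps34, also specific to mitochondria, at -0.16 (SE 0.08), Mrps17 at -0.08 (SE 0.09), Mrps24 at -0.06 (SE 0.15) and Mrps25 at -0.03 (SE 0.10).

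Mrpl1, the mitochondrial relative of Rpl10a, differed little. Its RPF level was 61.5, 61.8 and 59.9 CPM in WT and 70.4, 60.2 and 63.5 CPM in LOF, with overlapping genotypes. The log2 fold change was 0.08 (SE 0.08, 95% interval -0.10 to 0.26) in RPF, 0.02 (SE 0.07) in RNA and 0.06 (SE 0.10) in RPF/RNA. The RPF interval leaves out the change of Rpl10a itself.

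Of the other genes chosen by role, Mrps18b and Mrpl45, given above, had an unadjusted p under 0.05 in RPF. Both also showed no overlap between genotypes, as did some members with a higher p. In RPF the stalk genes were at 0.13 (SE 0.11) for Mrpl10, 0.05 (SE 0.09) for Mrpl11 and 0.01 (SE 0.08) for Mrpl12. Mrpl58, which encodes a peptidyl-tRNA hydrolase built into the large subunit, was at 0.16 (SE 0.08), and Mrpl44, whose product has an RNase III fold, at 0.08 (SE 0.09). In the small subunit, Mrps12 of the decoding centre was at 0.04 (SE 0.10), the pentatricopeptide repeat protein gene Mrps27 at -0.01 (SE 0.09) and Mrps28 at 0.14 (SE 0.09). The paralogs Mrps18a, at 0.16 (SE 0.09), and Mrps18c, at 0.01 (SE 0.08), set beside Mrps18b at 0.24, make products that occupy different places in the ribosome. Mrps30 was at 0.11 (SE 0.07) and Mrps36 at 0.10 (SE 0.09).

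In RNA, 1 of the 77 genes passed the test, against a background of 5.03%. Mrpl19, the counterpart of bacterial L19 at the face between the subunits, had 59.7, 57.1 and 58.6 RNA CPM in WT and 69.6, 70.5 and 70.3 RNA CPM in LOF. All LOF embryos were above all WT embryos, and Mrpl19 RNA rose (0.26, SE 0.05, adjusted p = 0.0268 by edgeR). The call was lost with a covariate for the Y-linked genes (log2 fold change 0.27) and without WT embryo 1 (0.28). Its RPF/RNA difference was -0.08 (SE 0.08).

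At an unadjusted p under 0.05 in RNA there were 5 members, 6.49%, against 17% of all transcripts, and 4 of them were higher in LOF, 5.19% against 7.45%. The genotypes did not overlap in 8 members, 10.4% (background 22.8%), of which 7 were higher in LOF, 9.09% (background 10.2%). These shares were under those of all transcripts. Beside Mrpl19, the positive differences at this level were those of Mrps18b (0.20, SE 0.07), Mrpl37 (0.19, SE 0.06) and Mrpl18 (0.15, SE 0.06). Mrpl14, the counterpart of L14, had 19.1, 17.6 and 20.2 RNA CPM in WT and 14.7, 16.9 and 14.3 in LOF (-0.30, SE 0.10, adjusted p = 0.143), without overlap. Mrpl41 was at -0.16 (SE 0.09). The other Mrps genes at the ends of the order were Mrps35 at 0.13 (SE 0.06), Mrps36 at -0.12 (SE 0.07) and Mrps24 at -0.10 (SE 0.08). The log2 fold change was above 0 in 47 of 77, against 49.4% of all transcripts. The median RNA difference was 0.02 for Mrpl and 0.01 for Mrps genes. With 1 embryo left out it ran from 0.00393 to 0.0568 for Mrpl genes and, turning its sign, from -0.0346 to 0.0589 for Mrps genes. All 77 intervals lay within 1.5-fold.

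In RPF/RNA, where the genotype effect on RPF was set against that on RNA in 1 model of the 12 libraries, no member passed the test by edgeR, DESeq2 or limma-voom. The background by edgeR was 0%. An unadjusted p under 0.05 was found for 4 members, 5.19%, against 4.44% of all transcripts, and 2 were higher in LOF, 2.60% against 2.48%. The genotypes did not overlap in 10 members (background 12.1%), 5 of them higher in LOF (background 6.87%). The members' shares were close to those of all transcripts. Mrpl16, near the peptidyl transferase centre, had the largest difference (0.37, SE 0.14, unadjusted p = 0.0177). Its RPF CPM were 35.4, 33.1 and 34.4 in WT and 36.4, 41.3 and 41.3 in LOF. Its RNA CPM were 36.3, 30.2 and 32.9 in WT and 27.7, 33.4 and 27.0 in LOF. The others at this level were Mrpl47 at 0.19 (SE 0.09), Mrpl18 at -0.23 (SE 0.09) and Mrps34 at -0.22 (SE 0.10). Mrpl35 at 0.27 (SE 0.13), Mrpl30 at -0.26 (SE 0.15) and Mrpl57 at -0.24 (SE 0.13) were also at the ends of the order of Mrpl genes. Among Mrps genes these were Mrps36 at 0.21 (SE 0.11), Mrps26 at 0.21 (SE 0.14) and Mrps35 at -0.10 (SE 0.09). The log2 fold change was above 0 in 54 of 77, 30 Mrpl and 24 Mrps genes, against 52% of all transcripts, and in 41 of 77 without LOF embryo 1. The median difference was 0.03 for Mrpl and 0.05 for Mrps genes, with ranges of 0.00228 to 0.0604 and 0.0136 to 0.0710 when 1 embryo was left out. In all, 75 of 77 intervals lay within 1.5-fold.

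The embryos were also compared by their medians over each subunit. The median over the Mrpl genes of the log2 RPF level relative to the WT mean was 0.00, -0.02 and 0.00 in the WT embryos and 0.11, 0.06 and 0.04 in the LOF embryos. Over the Mrps genes it was 0.02, -0.04 and 0.01 in WT and 0.13, 0.06 and 0.02 in LOF. In RPF the LOF embryos were above the WT embryos for both subunits, but for Mrps genes LOF embryo 3 (0.0193) and WT embryo 1 (0.0188) were almost level, and LOF embryo 1 was highest. In RNA and in RPF/RNA the embryos of the genotypes overlapped for both subunits. The 77 genes took 0.399% to 0.408% of RPF counts in WT libraries and 0.416% to 0.426% in LOF libraries, and 0.327% to 0.352% and 0.336% to 0.345% of RNA counts.

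**Figure D4:**
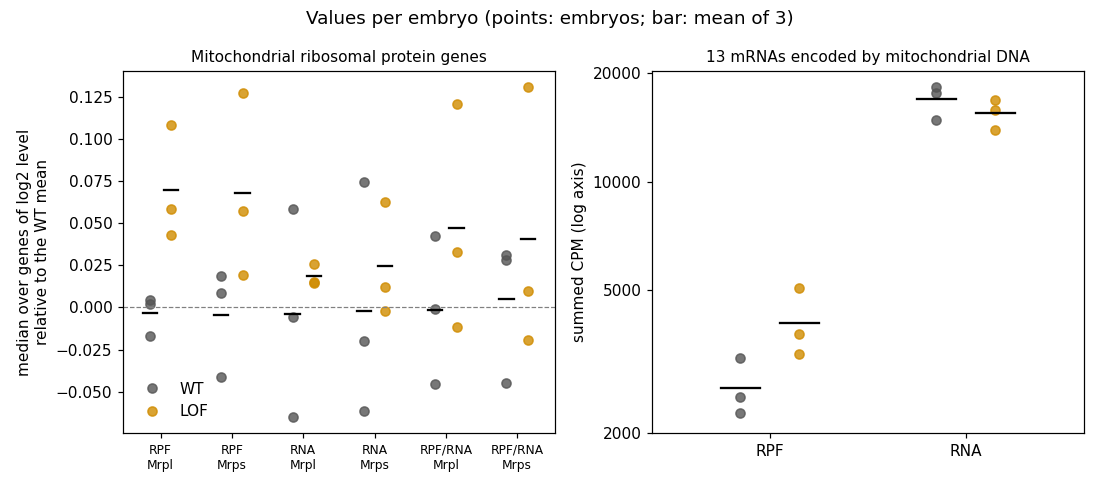
Left, the median over Mrpl or Mrps genes of the log2 level relative to the WT mean, in each WT (grey) and LOF (orange) embryo, with bars for the mean of 3; the LOF points lie above the WT points in RPF, up to 0.13 and with the nearest pair at 0.0193 and 0.0188, and overlap them in RNA and RPF/RNA. Right, summed CPM of the 13 mRNAs of mitochondrial DNA on a log axis, with 3315 to 5074 CPM in LOF against 2274 to 3232 in WT in RPF, and overlapping genotypes in RNA.

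The other nuclear genes for mitochondrial gene expression gave no call in RPF, RNA or RPF/RNA by edgeR. Of all transcripts, 2.19%, 5.03% and 0% were called in these measures. None of the 5 mitochondrial ribosomal proteins under other symbols (Dap3, Ptcd3, Chchd1, Aurkaip1 and Gadd45gip1) was called. Their RPF differences ran from -0.14 (SE 0.08) for Aurkaip1 to 0.18 (SE 0.09) for Chchd1, with 2 of 5 below 0. None of 14 mitochondrial translation factors, 27 assembly factors of the mitochondrial ribosome, 17 mitochondrial aminoacyl-tRNA synthetases and 11 genes for transcription of mitochondrial DNA and stability of its mRNAs was called. At an unadjusted p under 0.05 in RPF, 2, 1, 1 and 0 genes of these lists, in that order, were higher in LOF, against 7.12% of all transcripts, and none was lower. In RNA these counts were 2, 3, 2 and 0, against 7.45% of all transcripts, with 1 assembly factor lower.

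Of the 13 mRNAs of mitochondrial DNA, which the mitochondrial ribosome translates, 7 rose in RPF (adjusted p under 0.1 by edgeR), 6 did not pass the test and none fell, against 1.05% of all transcripts called and higher in LOF. The calls were lost in several of the alternative fits given below. None passed the edgeR test in RNA or in RPF/RNA, while DESeq2 called 2 of them higher in RPF/RNA. In RNA, 1 was called lower without the filter on low counts and 1 without LOF embryo 2. An unadjusted p under 0.05 with a higher value in LOF was found for 12 of 13 in both RPF and RPF/RNA by edgeR, against 7.12% and 2.48% of all transcripts. In RNA 12 of the 13 lay below 0, with a median of -0.14 and 2 lower in LOF at an unadjusted p under 0.05, and this RNA difference enters RPF/RNA. In RPF/RNA that number fell to 1 with the Y-linked covariate, where the values ran from -0.13 to 0.59, and to 7 without LOF embryo 3. mt-Co2, a core subunit of cytochrome c oxidase, had 274, 216 and 207 RPF CPM in WT and 298, 359 and 419 RPF CPM in LOF (0.63, SE 0.13, adjusted p = 0.0567). Its RNA was at 2218, 1678 and 2128 CPM in WT and 1816, 1921 and 1638 CPM in LOF (-0.16). mt-Nd4, of complex I, was at 0.69 in RPF (SE 0.15, adjusted p = 0.0583), with no overlap between genotypes, and at -0.04 in RNA. The lowest of the 13 was mt-Nd6 at 0.15 (SE 0.20). Together the 13 had 3232, 2514 and 2274 CPM in WT and 3315, 3770 and 5074 CPM in LOF in RPF, so that WT embryo 1 and LOF embryo 1 were close. The number that rose in RPF was 0 with the Y-linked covariate, where 0.175% of all transcripts were called in either direction. It was 0 without WT embryo 2 (0.0321% of all), WT embryo 3 (1.04%) or LOF embryo 3 (0.322%), 2 without WT embryo 1 (0.0962%) and 11 without LOF embryo 2 (11.6%). The calls over all transcripts thus moved in the same fits. The log2 fold changes ran from 0.15 to 0.69 over all embryos, from 0.21 to 0.65 without WT embryo 2, from 0.01 to 0.62 without WT embryo 3, from -0.16 to 0.53 without LOF embryo 3, and from -0.23 to 0.58 with the Y-linked covariate. Cycloheximide, used to hold cytosolic ribosomes in place, does not act on mitochondrial ribosomes, and the median WT RPF/RNA of these mRNAs was -2.87. Whether their RPF counts all come from ribosomes was not tested. In RPF the sums of visceral endoderm and primitive erythroid genes also separated the genotypes, whereas in RNA only the visceral endoderm sum did, and their part in this difference was not tested.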

How the data were processed

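Ribosome profiling and RNA-seq libraries of 3 WT and 3 LOF embryos at E8.5 were grouped by the submitters' labels. The authors trimmed reads with cutadapt, removed rRNA, tRNA and snRNA reads with Bowtie2, aligned the rest to GENCODE canonical transcripts of GRCm38/mm10 and removed duplicates with UMI-tools. The deposited values are counts, whole numbers without normalization. For RPF the authors counted the coding sequence without its first 15 and last 5 codons, and for RNA the entire transcript, so that RPF/RNA levels were taken per kb of each. Positions, lengths and start codons came from GENCODE M21, in which 5 of the 77 transcripts have another version. Reads that a gene shares with a near-identical copy were not separated here.

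Transcripts above 0.75 CPM in 3 or more RPF libraries entered edgeR's quasi-likelihood test (edgeR 4.0.16 under R 4.3.3), with genotype as the factor, TMM factors for RPF and RNA apart, and Benjamini-Hochberg adjustment over 12576 transcripts at 0.1. RPF/RNA was the interaction of genotype and library. The authors worked with limma and sva in a design that is not given in the sources used here, so edgeR stands in for them; limma 3.58.1, DESeq2 1.42.0 and sva 3.50.0 were alternatives. CPM values of single genes used TMM-scaled library totals, summed levels the plain totals, and RPF/RNA levels a pseudocount of 0.5 counts. In RPF and in RNA, p-values rest on the spread between 3 embryos per genotype, with estimates of spread shared across transcripts. The main RPF/RNA model had no term for the embryo, which only the embryo block added. Its p-values thus rest on the spread between libraries, with the RPF and RNA library of an embryo treated as independent. The scripts were tested on simulated counts.

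The members and gene lists were chosen with earlier results of these data known. Genes were named by a rule: Rpl10a, members past the threshold, the 4 largest differences in each direction and subunit in RPF (2 in RNA and RPF/RNA), the 3 highest and lowest WT RPF/RNA ratios, the 2 highest RPF levels per length, and 15 genes by role; other names are marked or come from settings with few calls. Same-numbered WT and LOF embryos did not deviate together (r -0.0355, -0.0833 and 0.0118 in RPF, and -0.0374, -0.0970 and 0.0881 in RNA), whereas the RPF and RNA library of 1 embryo did (r 0.161 to 0.373).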

Additional observations from a re-analysis of the deposited data

How the results depend on the processing

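The count of members called in RPF, 0 by edgeR, was 8 by limma-voom with surrogate variables and 0 to 6 when each embryo was left out, with 6 without LOF replicate 2. The count in RNA, 1 by edgeR, was 2 with a correction for coding-sequence GC content, 0 with the Y-linked covariate and 0 to 2 when each embryo was left out, and was 0 without WT replicate 1. The share of all transcripts called in RNA, 5.03% by edgeR, was 6.15%, 0.278% and 0.786% with the GC correction, with the Y-linked covariate and without WT replicate 1. No setting called a member in RPF/RNA. Of all transcripts, DESeq2 called 0.0398% in RPF/RNA, edgeR without LOF replicate 2 called 0.184%, and every other setting 0%. The absence of called members in RPF/RNA therefore says little about the members. With the replicate number as a block the counts were 0 in RPF, 1 in RNA and 0 in RPF/RNA. That block called 2.49%, 4.18% and 0% of all transcripts. An embryo block called 0 members and 0% of all transcripts in RPF/RNA. The replicate block moved the count of mRNAs of mitochondrial DNA that rose in RPF from 7 to 11. The share of all transcripts called went from 2.19% to 2.49%. That count was 4 with DESeq2 (2.13% of all transcripts called), 9 with limma-voom (2.62%) and 12 with surrogate variables (10.4%).

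The median RPF difference of the Mrpl genes, 0.0647, ranged from 0.0231 without LOF replicate 1 to 0.0844 without LOF replicate 3 when each embryo was left out. The median WT RPF/RNA of Mrpl and Mrps genes, 0.82 and 0.79, was 0.61 and 0.65 without division by length, 0.71 and 0.70 over the whole coding sequence, and 0.73 and 0.71 with a filter of more than 5 CPM. It was 0.78 for Mrpl genes with a pseudocount of 5 counts. With settings chosen after seeing the data, it was 0.65 and 0.70 with RNA per kb of 5'UTR and coding sequence, and 0.42 and 0.40 against transcripts with coding sequences in the members' range of length. With 3 embryos per genotype, a member's difference whose 95% interval holds 0 was not distinguished from no difference.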
